A study of Mus musculus with 10 samples.

Results

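The 10 genes described here encode feedback regulators and ETS factors of the ERK pathway that are commonly read as outputs of fibroblast growth factor (FGF) signalling. They were listed by name as genes of this pathway, with earlier results of these data known. They are the Sprouty genes Spry1, Spry2 and Spry4, the Sprouty-related genes Spred1 and Spred2, the ERK phosphatase genes Dusp6 and Dusp4, Il17rd, which encodes the membrane protein Sef, and the ETS transcription factor genes Etv4 and Etv5. All 10 are among the 18381 genes of the count table, and all 10 are among the 14504 genes that passed the expression filter.

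The samples were first lower molars of wild type mouse embryos of the C57BL/6JOlaHsd strain at embryonic day 14 (E14), the cap stage, when the epithelium folds over the dental mesenchyme. The teeth came in pairs from 5 embryos (1, 2, 3, 4 and 6 in the labels), 1 tooth of a pair for IGF1 and the other for control, with right and left sides balanced. The 5 IGF1 teeth were kept for 6 h in hanging drops in medium with recombinant mouse insulin-like growth factor 1 (IGF1) at 750 ng/ml. The 5 control teeth were kept in the same way with an equal volume of the vehicle, phosphate-buffered saline with bovine serum albumin. Every tooth, control or IGF1, was therefore a whole explant that had spent 6 h in culture, and uncultured teeth were not analysed here. The comparison asks how the RNA of these genes differs between the IGF1 tooth and the control tooth of the same embryo.

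FGF ligands bind receptor tyrosine kinases and, through RAS, RAF and MEK, lead to phosphorylation of the kinases ERK1 and ERK2. ERK activates ETS factors of the Etv4 and Etv5 group and induces inhibitors of its own pathway, so the RNA of these inhibitors follows pathway activity within hours. In the molar germ FGFs are made by the enamel knot, the signalling centre of the epithelium, and by the mesenchyme, and Sprouty genes are known to limit FGF signalling between the tissues and to control tooth number. IGF1 signals through its own receptor tyrosine kinase, which also feeds into RAS and ERK besides phosphoinositide 3-kinase.

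Total estimated counts per tooth ran from 2845773 to 8403151 in the control group and from 3456634 to 8763113 in the IGF1 group, and both teeth of embryo 1 had the lowest totals of their groups. A value below is a level in CPM (counts scaled per library total) after TMM scaling unless stated otherwise, and a log2 fold change is IGF1 over control from a paired edgeR quasi-likelihood fit of all genes, called at a Benjamini-Hochberg adjusted p under 0.05. Markers of dental epithelium (12 genes) summed to 1841 to 2619 CPM in control teeth and 2117 to 2915 CPM in IGF1 teeth, and markers of mesenchyme (10 genes) to 7131 to 9250 CPM and 6475 to 9060 CPM, so RNA of both tissues was present in every sample.

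All 10 ERK feedback genes had lower fitted levels with IGF1, as did 50.6% of all genes tested, and 5 of them fell past the threshold, namely Spry1, Spry2, Spry4, Dusp6 and Il17rd. None of the 10 rose. Of all genes tested 4.76% were called lower and 6.72% higher (11.5% in either direction), and among genes at least as abundant as the least abundant member 5.55% were called lower. At an unadjusted edgeR p under 0.05, 8 of the 10 were lower, against 12.2% of all genes. The median log2 fold change of the 10 genes was -0.44, against -0.0038 over all genes tested, of which the central part, from the lower to the upper quartile, lay between -0.15 and 0.16. The largest change, that of Spry2, was a fall of 46.3%, and the smallest of the called changes, that of Spry4, was a fall of 24.1%. In these whole teeth, fewer cells of a type that expresses a gene and less RNA of that gene per cell cannot be told apart. The fit without the embryo block called 3 of the 10, and 4 of the 5 named genes passed without embryo 3, 4 or 6, since Spry4 lost its call each time, while Spred2 gained a call without embryo 3.

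**Figure D1:**
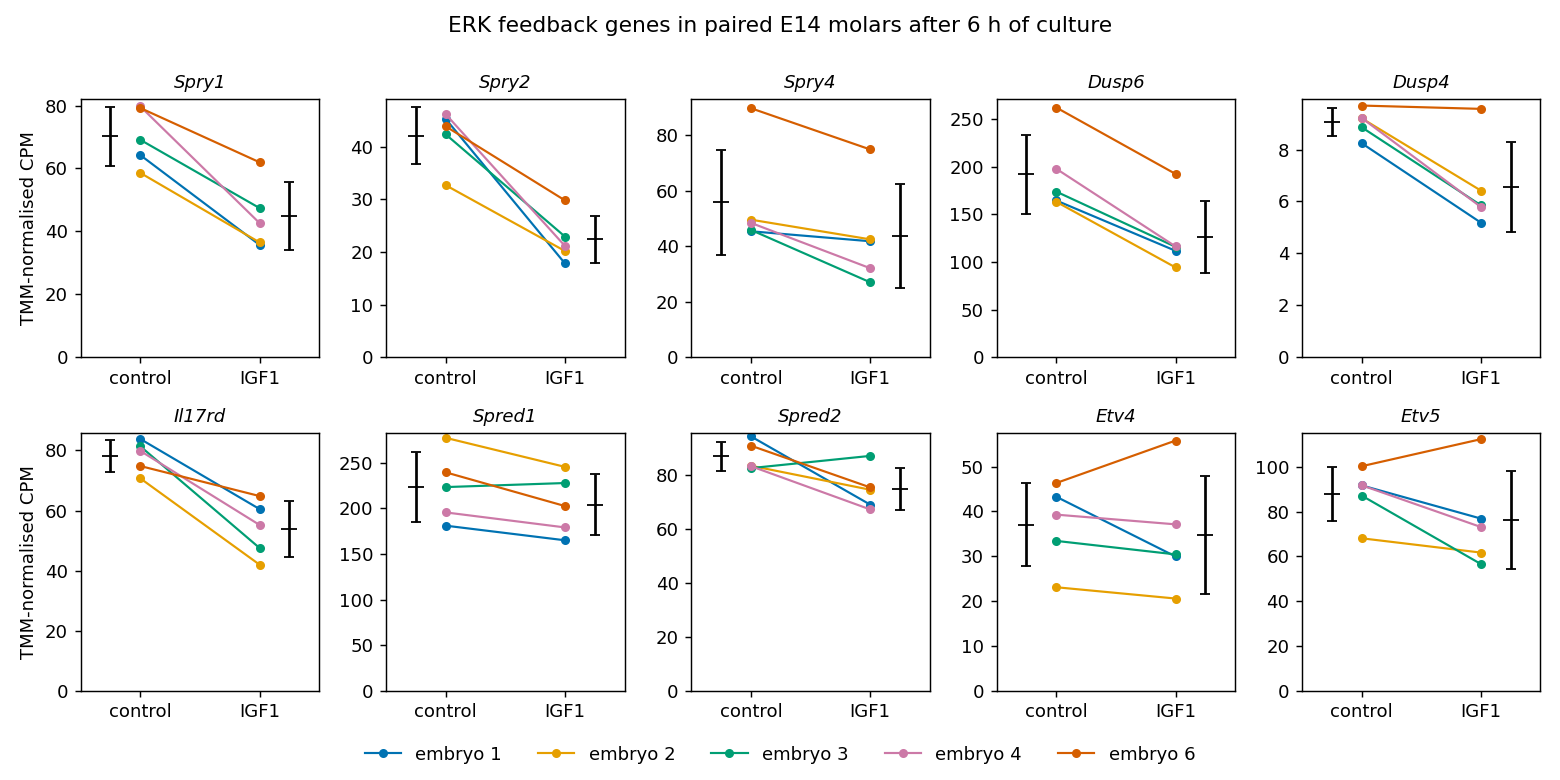
Levels of the 10 ERK feedback genes in TMM-normalised CPM (vertical axis, from 0) in the control and the IGF1 tooth of each embryo. A line joins the teeth of an embryo, and the black marks beside the points are the mean and SD of 5 teeth. The lines of Spry1, Spry2, Spry4, Dusp6, Dusp4 and Il17rd slope down in all 5 embryos, whereas those of Spred1 and Spred2 turn up in embryo 3 and those of Etv4 and Etv5 in embryo 6.

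The stretch just upstream of the gene start is shown for the 4 genes that fell and have an entry in the RefSeq promoter table (GRCm38.p6), because these genes fell with IGF1 and the ETS factors Etv4 and Etv5 are part of the same pathway. Of the 10 genes 7 matched an entry, with 8 windows in all, since Etv5 has 2. Sequences run 5′ to 3′ on the strand of the gene and end at the last base before the first annotated start. Capitals mark GGAA, the core of ETS binding sites, or its complement TTCC.
Dusp6 (chr10:99262981-99263230, + strand): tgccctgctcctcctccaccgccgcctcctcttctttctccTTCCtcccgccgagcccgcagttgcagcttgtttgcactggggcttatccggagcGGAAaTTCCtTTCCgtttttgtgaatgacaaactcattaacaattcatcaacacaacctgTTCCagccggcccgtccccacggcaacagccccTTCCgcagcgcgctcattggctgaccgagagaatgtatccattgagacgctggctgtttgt
Spry1 (chr3:37639697-37639946, + strand): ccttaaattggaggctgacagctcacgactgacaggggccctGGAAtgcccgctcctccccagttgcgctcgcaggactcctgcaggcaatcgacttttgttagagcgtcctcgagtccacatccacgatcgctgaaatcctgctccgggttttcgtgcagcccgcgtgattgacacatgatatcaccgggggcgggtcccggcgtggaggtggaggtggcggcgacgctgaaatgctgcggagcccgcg
Spry2 (chr14:105896820-105897069, - strand): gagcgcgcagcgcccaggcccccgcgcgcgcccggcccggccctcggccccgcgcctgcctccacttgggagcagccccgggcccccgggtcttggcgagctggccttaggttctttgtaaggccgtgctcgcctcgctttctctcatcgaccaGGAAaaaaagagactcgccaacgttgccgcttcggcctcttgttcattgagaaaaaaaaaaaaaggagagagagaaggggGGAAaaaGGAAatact
Il17rd (chr14:27038751-27038940, + strand): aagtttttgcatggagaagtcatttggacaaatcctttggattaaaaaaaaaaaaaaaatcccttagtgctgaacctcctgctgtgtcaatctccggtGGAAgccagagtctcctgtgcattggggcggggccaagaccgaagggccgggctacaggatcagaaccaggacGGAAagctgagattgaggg

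The core was found 6 times in the 250 bases of Dusp6, 3 times in those of Spry2, once in those of Spry1 and 2 times in the 190 bases printed for Il17rd, whose full window of 250 bases holds 4. Genes that did not pass the test had as many, with 7 in the window of Spred2, 4 in that of Spred1 and 0 and 4 in the windows of Etv5. A core of 4 letters is common, and 93.4% of the 32851 windows of 250 bases in the table hold GGAA on either strand, with a median of 3 matches. The longer match CGGAAG, present in 13.6% of windows, was found 1 time each in the windows of Dusp6, Spred1 and Spred2. The longer match AGGAAG, present in 29.5% of windows, was found 1 time in that of Dusp6 and 2 times in that of Spred2, and both longer matches contain the core. The AP-1 motif TGANTCA, present in 6.75% of windows, was not among the letters of any of the 8 windows. The share of G and C in the full windows of the 7 genes ran from 54.4% in Il17rd to 71.2% in the first window of Etv5. All were above the median of 52.4% over all windows, but Il17rd, Spred2 (56%) and Dusp6 (56.4%) were close to it. These matches describe the letters of the windows and say nothing of binding in these teeth.

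The Sprouty genes encode membrane-associated inhibitors of receptor tyrosine kinase signalling to ERK, and Spry1, Spry2 and Spry4 fell with IGF1. The remaining family gene Spry3, which is not among the 10 and is named after its values were seen, was far less abundant and did not pass the test, with 1.72 ± 0.739 CPM in control and 2.82 ± 1.01 CPM in IGF1 teeth (SD, n = 5) and a log2 fold change of 0.72 (SE 0.299, edgeR adjusted p = 0.152, higher with IGF1 in 5 of 5 embryos). Spry2 (ENSMUSG00000022114, chr14:105891947-105896819, GRCm38, minus strand) had control levels of 45.3, 32.7, 42.4, 46.2 and 43.9 CPM in embryos 1, 2, 3, 4 and 6, and IGF1 levels of 17.9, 20.2, 23.0, 21.2 and 29.8 CPM. Every IGF1 tooth was below every control tooth, a separation seen for 3.03% of all genes tested in that direction and for 4.21% in the other. The mean level was 42.1 ± 5.45 CPM in control and 22.4 ± 4.54 CPM in IGF1 teeth (SD, n = 5), and the log2 fold change was -0.90 (SE 0.117, edgeR adjusted p = 0.000846), a fold of 0.537 with a 95% interval from 0.449 to 0.642. Within embryos the log2 ratio of Spry2 ran from -1.32 in embryo 1 to -0.55 in embryo 6.

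Spry1 (ENSMUSG00000037211, chr3:37639947-37644598, plus strand), with the highest mean level per length of the Sprouty genes in control teeth, stood at 64.2, 58.6, 69.1, 79.7 and 79.2 CPM in the control teeth of embryos 1, 2, 3, 4 and 6 and at 35.7, 36.5, 47.4, 42.6 and 62.0 CPM in the IGF1 teeth. The groups overlapped only through the IGF1 tooth of embryo 6, which was above the control tooth of embryo 2. The log2 fold change of Spry1 was -0.66 (SE 0.0927, edgeR adjusted p = 0.00140), and its mean went from 70.2 ± 9.26 to 44.8 ± 10.7 CPM (SD, n = 5). Of the 31-base words of Spry1 transcripts, 23.1% also occur in Gm42922, an unconfirmed antisense transcript model that is not in the count table, and strand use in counting is not given in the sources used here, so reads over this shared stretch cannot be told apart.

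Spry4 (ENSMUSG00000024427, chr18:38586247-38601415, minus strand) had the largest relative spread among the control teeth, with a coefficient of variation of 34.1%. Its control levels were 45.3, 49.5, 45.8, 48.4 and 89.7 CPM in embryos 1, 2, 3, 4 and 6, and its IGF1 levels were 41.8, 42.4, 27.0, 32.0 and 74.8 CPM. Both teeth of embryo 6 were above all others, so the groups overlapped although each IGF1 tooth was below the control tooth of its embryo. Its log2 fold change was -0.40 (SE 0.102, edgeR adjusted p = 0.0295), with log2 ratios from -0.75 in embryo 3 to -0.12 in embryo 1. The call of Spry4 was lost without embryo 3, 4 or 6 (edgeR adjusted p = 0.0691, 0.114 and 0.0625) and without the block (edgeR adjusted p = 0.497), within a range over 13 alternatives from 0.0180 to 0.497.

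Dusp6 and Dusp4 encode dual-specificity phosphatases that remove the activating phosphates of ERK, Dusp6 mainly in the cytoplasm and Dusp4 in the nucleus. Dusp6 (ENSMUSG00000019960, chr10:99263231-99267489, plus strand) had 165, 163, 174, 198 and 262 CPM in the control teeth of embryos 1, 2, 3, 4 and 6 and 112, 94.3, 116, 116 and 192 CPM in the IGF1 teeth. The IGF1 tooth of embryo 6 lay within the range of the control teeth, and the other 4 IGF1 teeth lay below it. Its log2 fold change was -0.63 (SE 0.0724), a fold of 0.646 (edgeR adjusted p = 0.000420), the smallest adjusted p of the 10 genes. The log2 ratios of Dusp6 ran from -0.79 in embryo 2 to -0.45 in embryo 6, with an SD of 0.146 over the 5 embryos, while its level in control teeth ranged from 163 to 262 CPM. Without the block, which sets these embryo levels aside, the edgeR adjusted p of Dusp6 was 0.0679, the highest of 13 alternatives, which began at 2.81e-10.

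Dusp4 (ENSMUSG00000031530, chr8:34807297-34819894, plus strand) was the least abundant of the genes, with 18 to 75 counts in a tooth. It stood at 8.25, 9.20, 8.86, 9.22 and 9.69 CPM in the control teeth and at 5.18, 6.42, 5.85, 5.79 and 9.56 CPM in the IGF1 teeth of embryos 1, 2, 3, 4 and 6. The IGF1 teeth of embryos 1 to 4 were below all control teeth, while the teeth of embryo 6 hardly differed, with a log2 ratio of -0.02. A log2 fold change of -0.48 (SE 0.171) did not pass the test (edgeR adjusted p = 0.0994), and its 95% interval ran from -0.85 to -0.10.

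Il17rd (ENSMUSG00000040717, chr14:27038941-27107286, plus strand) encodes Sef, a transmembrane protein that inhibits FGF signalling to ERK. Its levels were 83.8, 70.7, 81.4, 79.9 and 74.8 CPM in the control teeth and 60.5, 42.0, 47.5, 55.2 and 64.8 CPM in the IGF1 teeth of embryos 1, 2, 3, 4 and 6. The groups did not overlap, which among the 10 genes was otherwise seen for Spry2 alone. Il17rd fell by 0.55 on the log2 scale (SE 0.0930, edgeR adjusted p = 0.00371), from 78.1 ± 5.29 to 54.0 ± 9.32 CPM (SD, n = 5).

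Spred1 and Spred2 encode relatives of the Sprouty proteins, which bring the RAS inhibitor neurofibromin to the membrane, and neither passed the test. Spred1 (ENSMUSG00000027351, chr2:117121374-117182279, plus strand) had 181, 277, 223, 196 and 240 CPM in control teeth and 165, 246, 228, 179 and 203 CPM in IGF1 teeth of embryos 1, 2, 3, 4 and 6. Its teeth differed more between embryos than between treatments, and the groups overlapped widely. The log2 fold change of Spred1 was -0.13 (SE 0.0648, edgeR adjusted p = 0.234), with a 95% interval from -0.27 to 0.013. The interval of Spry4, from -0.62 to -0.17, overlapped it, and the difference between these genes was not tested. The log2 ratios of Spred1 had the smallest spread of the 10 genes, with an SD of 0.0996.

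Spred2 (ENSMUSG00000045671, chr11:19924375-20024026, plus strand) had 94.5, 83.6, 82.7, 83.4 and 91.0 CPM in control teeth and 69.1, 74.6, 87.2, 67.3 and 75.5 CPM in IGF1 teeth of embryos 1, 2, 3, 4 and 6. The IGF1 teeth of embryos 1, 2, 4 and 6 were below all control teeth, and that of embryo 3 was above its control. Spred2 had a log2 fold change of -0.21 (SE 0.0842, edgeR adjusted p = 0.129). Without embryo 3 it was -0.30 and passed the test (edgeR adjusted p = 0.0463), the lowest of 13 alternatives that reached 0.327.

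Etv4 and Etv5 encode ETS transcription factors that act downstream of FGF receptors, and neither passed the test. Etv5 (ENSMUSG00000013089, chr16:22381309-22439719, minus strand) had 91.7, 68.1, 87.2, 91.8 and 100.3 CPM in control teeth and 76.9, 61.7, 56.6, 73.1 and 112 CPM in IGF1 teeth of embryos 1, 2, 3, 4 and 6. It was lower with IGF1 in embryos 1 to 4 and higher in embryo 6, whose IGF1 tooth had the highest value of all. For Etv5 the log2 fold change was -0.23 (SE 0.103, edgeR adjusted p = 0.172), with -0.14 without embryo 3 and -0.34 without embryo 6. Of the 31-base words of Etv5 transcripts 30.3% also occur in the processed pseudogene Gm4798, which is not in the count table, so the level of Etv5 is less certain than those of Spry4, Dusp6, Dusp4 and Etv4, which share none.

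Etv4 (ENSMUSG00000017724, chr11:101769742-101785371, minus strand) had 43.3, 23.1, 33.4, 39.3 and 46.3 CPM in control teeth and 29.9, 20.6, 30.4, 37.1 and 55.8 CPM in IGF1 teeth of embryos 1, 2, 3, 4 and 6. The groups overlapped over almost the whole range, and the log2 ratios ran from -0.52 in embryo 1 to 0.27 in embryo 6. The log2 fold change of Etv4 was -0.11 (SE 0.109, edgeR adjusted p = 0.588), the smallest of the 10, with a 95% interval from -0.35 to 0.13. It was -0.022 without embryo 1 and -0.22 without embryo 6. The adjusted p of single genes says that Dusp6 or Spry2 passed and Etv4 did not, and the differences between these genes in their response were not tested.

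**Figure D2:**
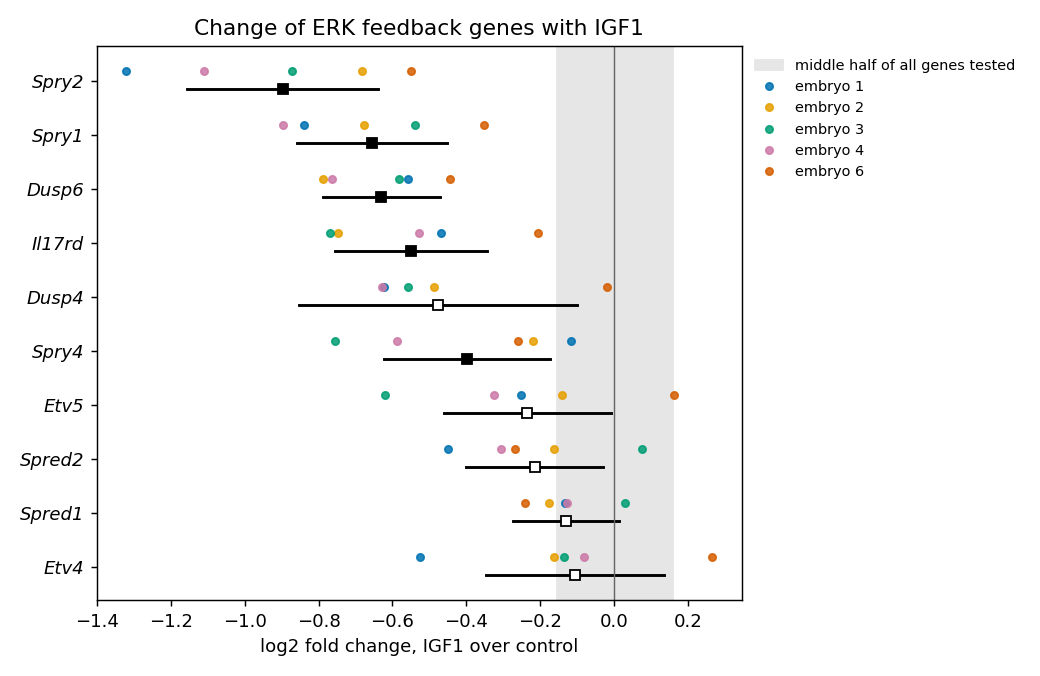
Log2 fold change of each ERK feedback gene, IGF1 over control (horizontal axis). Squares with bars are the edgeR estimate and its 95% interval, filled where the adjusted p is under 0.05, coloured points are the log2 ratios of the 5 embryos, and the grey band lies between the quartiles of all genes tested. The genes that passed the test have intervals wholly below the band, and the point of embryo 6 is the rightmost for 7 of the 10 genes.

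The embryos differed in how far these genes moved. The median log2 ratio over the 10 genes was -0.50, -0.35, -0.57, -0.56 and -0.25 in embryos 1, 2, 3, 4 and 6, while the median over all genes tested lay within 0.016 of 0 in each embryo. All 10 ratios were below 0 in embryos 1, 2 and 4, and 8 of 10 were below 0 in embryos 3 and 6. Of the 10 genes 6 were lower with IGF1 in all 5 embryos, which held for 11.2% of all genes tested. Embryo 6 had the highest level among the IGF1 teeth for 8 of the 10 genes and among the control teeth for 5, where it was highest for 20.5% and 18.6% of all genes. The log2 ratio of embryo 6 was the highest of the 5 for 7 of the 10 genes, against 18.3% of all genes. At the low end, the control tooth of embryo 2 was the lowest of its group for 6 of the 10 genes, against 25% of all genes, with Spry2, Etv4 and Il17rd among them.

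Scaled by the length of the annotated exons, the control teeth spanned a wide range of levels. Dusp6 was the highest at 61.4 ± 13.2 CPM per kb, followed by Spred1 at 32.9 ± 5.59, Spry1 at 24.1 ± 3.19, Etv5 at 21.4 ± 2.92, Spry2 at 20.2 ± 2.61 and Spred2 at 18.8 ± 1.16 CPM per kb (SD, n = 5). The lower group held Etv4 at 11.9 ± 2.96, Spry4 at 11.7 ± 4.0, Il17rd at 7.11 ± 0.482 and Dusp4 at 3.30 ± 0.196 CPM per kb (SD, n = 5). The ranges of neighbours in this order did not overlap between Dusp6 and Spred1, Spred2 and Etv4, Spry4 and Il17rd, and Il17rd and Dusp4. The ranges of the other 5 neighbouring pairs overlapped, although within single control teeth Spred1 was above Spry1 and Etv5 above Spry2 in all 5 embryos. Spry1 was above Etv5 in 4, Spry2 above Spred2 in 4 and Etv4 above Spry4 in 3 of the 5. With IGF1, Dusp6 and Spred1 kept the first places and Spry4, Il17rd and Dusp4 the last, while the means of Spry1 and Spry2 came to lie below that of Spred2 in CPM per kb.

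**Figure D3:**
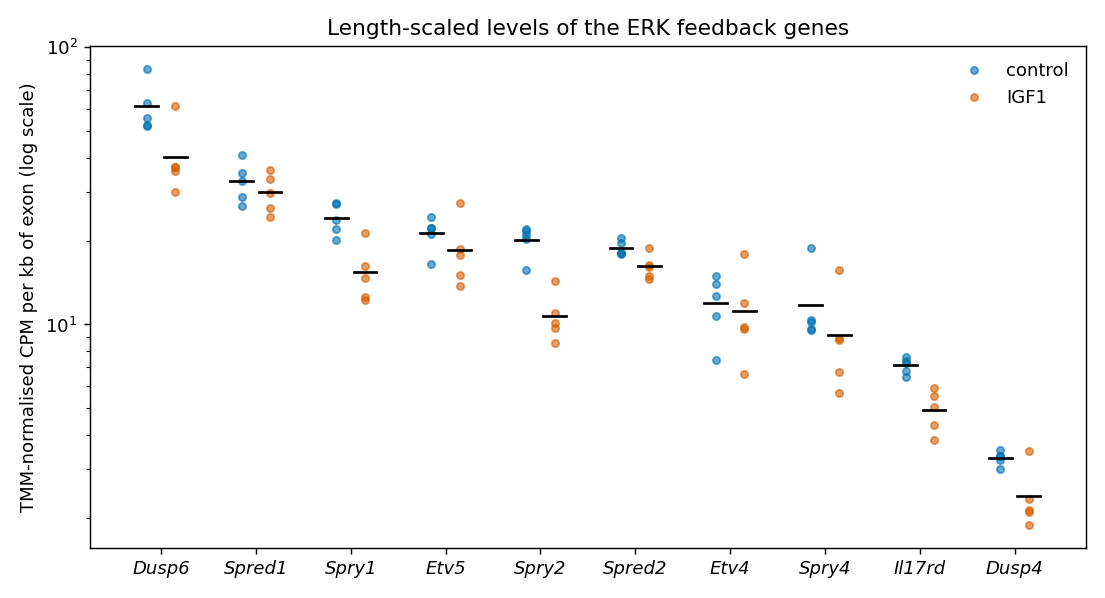
Levels of the 10 ERK feedback genes in TMM-normalised CPM per kb of annotated exon (vertical log axis), ordered by the control mean. Points are single teeth and black lines are means of 5 teeth. Dusp6 leads in both groups and Dusp4 is last, and the means of all 10 genes are lower in the IGF1 group.

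The genes whose 5 log2 ratios were most like those of Dusp6 were sought among 10856 genes with a mean of at least 10 CPM that are not on the list, by the largest absolute difference over the 5 embryos. Among the closest were Tgfbr3, which encodes the TGF-beta co-receptor betaglycan (largest difference 0.119), Eppk1 for the cytolinker epiplakin (0.156), Pappa2 for a protease that cleaves IGF binding proteins (0.157) and Slc25a27 for a mitochondrial carrier (0.179). Of the ERK feedback genes Il17rd came nearest to Dusp6, with a largest difference of 0.239 and 11 of these candidates closer, followed by Spry1 with 0.282 and 20 closer. Spry2 was the farthest of the members at 0.764, its difference in embryo 1, whose teeth had the lowest total counts. It also fell further than Dusp6 in embryos 3, 4 and 6. Since likeness was measured in these same teeth, it is a description over 5 embryos.

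The further feedback genes, 18 relatives of the members and other inhibitors of the pathway, did not share one direction. Of these, 2 fell, 2 rose and 14 did not pass the test, beside 4.76% and 6.72% over all genes, and their median log2 fold change was -0.08, with a range from -0.12 to -0.05 when an embryo was left out. Etv1, the remaining member of the ETS group of Etv4 and Etv5, stood at 44.7, 55.1, 46.3, 46.9 and 49.4 CPM in control teeth and at 33.4, 33.8, 36.4, 24.7 and 35.8 CPM in IGF1 teeth of embryos 1, 2, 3, 4 and 6, without overlap. Its log2 fold change was -0.57 (SE 0.0998, edgeR adjusted p = 0.00428), so that of this ETS group it was Etv1 that passed the test. Rasa1, a RAS GTPase-activating protein gene, fell by 0.38 on the log2 scale (SE 0.0816, edgeR adjusted p = 0.0139), and lost its call without embryo 6 (edgeR adjusted p = 0.0602) and without the block (edgeR adjusted p = 0.155, the upper end of alternatives from 0.00160). The ERK phosphatase genes Dusp9 and Dusp7 rose, by 0.95 (SE 0.245, edgeR adjusted p = 0.0298) and 0.32 (SE 0.0857, edgeR adjusted p = 0.0361) on the log2 scale. Levels of Dusp9 were low, at 3.99 ± 1.42 CPM in control and 7.74 ± 2.55 CPM in IGF1 teeth (SD, n = 5). Dusp9 lost its call without embryo 1, 2, 4 or 6 (edgeR adjusted p = 0.0802, 0.0806, 0.0504 and 0.115, in a range from 0.0138 to 0.115) and Dusp7 without embryo 1, 3, 4 or 6 (edgeR adjusted p = 0.0907, 0.0931, 0.0587 and 0.150, in a range from 0.0272 to 0.165). Dusp7 lost it also with DESeq2 (adjusted p = 0.0672), and both did so without the block (edgeR adjusted p = 0.0902 for Dusp9 and 0.165 for Dusp7).

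Among 12 other genes often used as ERK readouts, 3 fell, none rose and 9 did not pass the test, beside 4.76% called lower and 6.72% called higher over all genes. Their median log2 fold change was -0.07, but -0.20 without embryo 2 and 0.0043 without embryo 4, so its direction is not settled. Egr3, an early growth response transcription factor gene, had 44.0, 34.9, 40.8, 38.3 and 102 CPM in control teeth and 13.2, 12.6, 18.4, 13.8 and 76.7 CPM in IGF1 teeth of embryos 1, 2, 3, 4 and 6. Both teeth of embryo 6 stood far above the rest, and within each embryo the IGF1 tooth was lower. Egr3 fell by 1.17 on the log2 scale (SE 0.164, edgeR adjusted p = 0.00133; without the block 0.313, the highest of alternatives from 9.08e-09). Myc, the growth regulator, fell by 0.55 (SE 0.0942, edgeR adjusted p = 0.00389) and the groups narrowly did not overlap. Hmga2, a chromatin protein gene, fell by 0.45 (SE 0.0850, edgeR adjusted p = 0.00654; without the block 0.117, the highest of alternatives from 7.26e-05). Of 14 immediate early genes 1, Egr1, passed the test, near the share of all genes called lower (4.76%), and 10 of the 14 were below 0, with a median of -0.16. Egr1 had 46.4, 51.3, 45.6, 45.7 and 56.2 CPM in control teeth and 32.0, 34.6, 29.8, 30.2 and 40.3 CPM in IGF1 teeth of embryos 1, 2, 3, 4 and 6, without overlap, and a log2 fold change of -0.56 (SE 0.0766, edgeR adjusted p = 0.00116).

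Of 25 genes from the receptor adaptors to ERK and its substrates 2 rose, 1 fell and 22 did not pass the test, beside 11.5% called in either direction over all genes, and their median log2 fold change was -0.01, with a range from -0.03 to 0.015 when an embryo was left out. Map2k1, which encodes MEK1, rose by 0.70 (SE 0.147, edgeR adjusted p = 0.0118) and Rps6ka1, which encodes the ERK-activated kinase RSK1, by 0.43 (SE 0.0766, edgeR adjusted p = 0.00506). Gab1, a docking protein of receptor tyrosine kinases, fell by 0.36 (SE 0.0622, edgeR adjusted p = 0.00446). For each of these 3 genes the control and IGF1 teeth did not overlap. Of 4 FGF receptor genes tested Fgfr1 fell by 0.29 (SE 0.0737, edgeR adjusted p = 0.0301), a call that was lost without embryo 1, 3, 4 or 6 (edgeR adjusted p = 0.113, 0.0618, 0.113 and 0.0573) and without the block (0.0902), in a range from 0.00742 to 0.113. Fgfr4 was too low to be tested, and the median of the 4 receptor genes was 0.03, with -0.014 without embryo 6.

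Of 22 FGF ligand genes 13 were abundant enough to be tested, and 1 fell, 1 rose and 11 did not pass the test, beside 11.5% called over all genes. The median log2 fold change of the ligands was -0.10, with -0.21 without embryo 1 and -0.17 without embryo 3. Fgf3, a ligand of dental mesenchyme and enamel knot, had 13.4, 10.2, 18.4, 16.5 and 27.1 CPM in control teeth and 5.47, 2.14, 2.41, 4.94 and 23.3 CPM in IGF1 teeth of embryos 1, 2, 3, 4 and 6. Its level with IGF1 was low in embryos 1 to 4 and in embryo 6 close to that of the control tooth. The log2 fold change of Fgf3 was -1.55 (SE 0.324, edgeR adjusted p = 0.0116; without the block 0.237, the highest of alternatives from 7.11e-06). Fgf11, which encodes an intracellular protein that does not act through FGF receptors, rose by 1.17 (SE 0.311, edgeR adjusted p = 0.0348). Its call was lost without embryo 2, 3 or 4 (edgeR adjusted p = 0.109, 0.0999 and 0.0528) and with DESeq2 (adjusted p = 0.11), in a range from 0.0150 to 0.11.

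The other ligands known in the molar germ did not pass the test in the paired fit. Fgf4, the classic FGF of the enamel knot and also on the enamel knot marker list, had 4.12, 3.94, 2.48, 2.27 and 7.88 CPM in control teeth and 1.44, 0.594, 0.918, 0.988 and 9.71 CPM in IGF1 teeth of embryos 1, 2, 3, 4 and 6. It was lower with IGF1 in embryos 1 to 4 and higher in embryo 6, with a log2 fold change of -1.06 (SE 0.404, edgeR adjusted p = 0.119). Without embryo 6 the log2 fold change of Fgf4 was -1.71 (edgeR adjusted p = 0.0317, the lowest of alternatives that reached 0.703). Its log2 fold change was smaller without the block (-0.58, edgeR adjusted p = 0.703) and with limma-voom (-0.69, adjusted p = 0.286). The epithelial ligand Fgf9 had a log2 fold change of -0.75 (SE 0.252, edgeR adjusted p = 0.0824), and passed the test without embryo 3 (edgeR adjusted p = 0.0407) and among genes with at least 10 counts in every sample (edgeR adjusted p = 0.0465), in a range from 0.0407 to 0.267. Fgf20, a target of ectodysplasin in the epithelium, had -1.14 (SE 0.437, edgeR adjusted p = 0.120), or -0.73 without embryo 3. Its levels were low, at 2.39 ± 1.52 CPM in control and 1.23 ± 1.19 CPM in IGF1 teeth (SD, n = 5). Without embryo 4 or 6 Fgf20 did not pass the expression filter. Fgf10 of the mesenchyme had a log2 fold change of -0.27 (SE 0.0969, edgeR adjusted p = 0.0970). Fgf8 was too low to be tested.

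**Figure D4:**
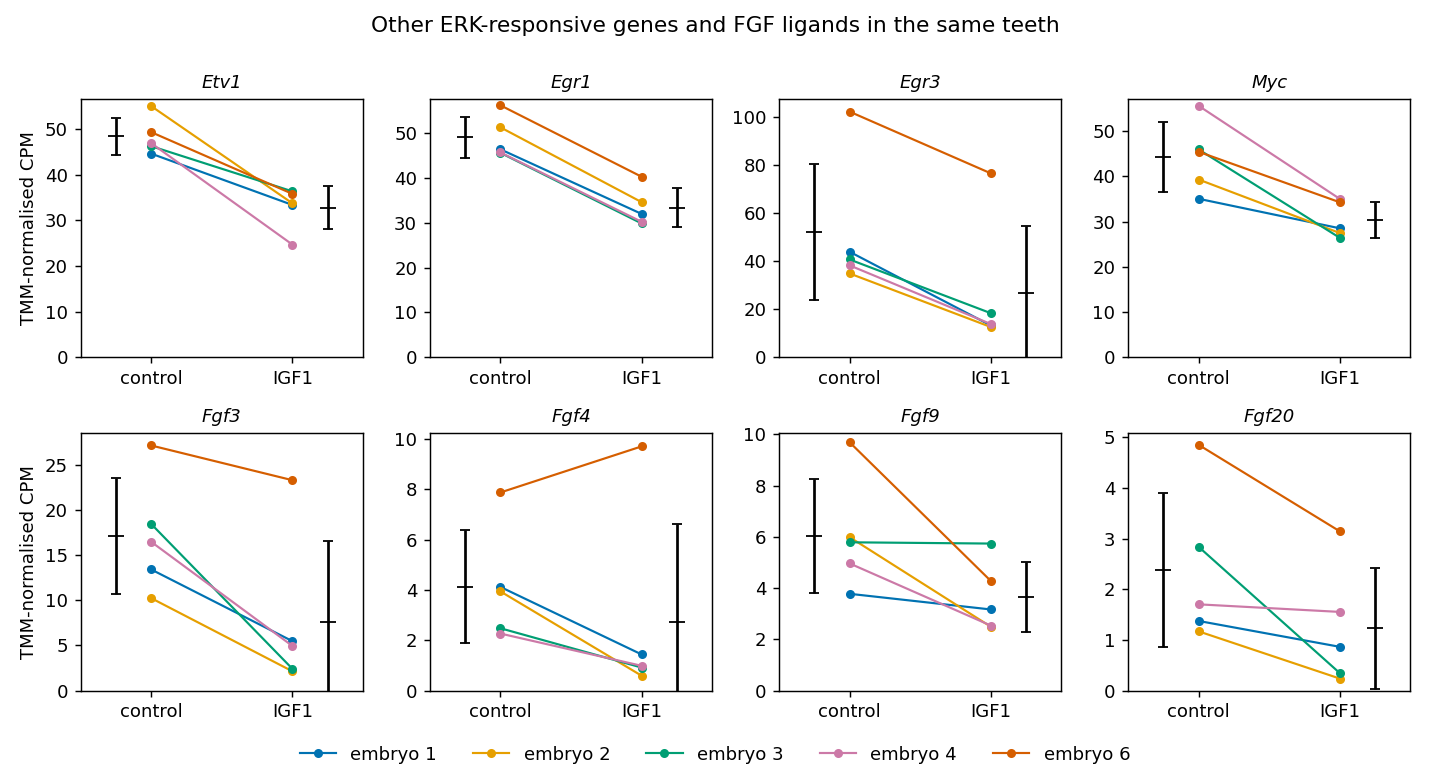
Levels in TMM-normalised CPM (vertical axis, from 0) of 4 further ERK-responsive genes (upper row) and 4 FGF ligands (lower row) in the control and the IGF1 tooth of each embryo, with mean and SD of 5 teeth in black. Bars that would pass below 0 are cut at the axis. Embryo 6 lies above the other embryos in both groups for Egr3, Fgf3, Fgf4 and Fgf20.

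**Figure D5:**
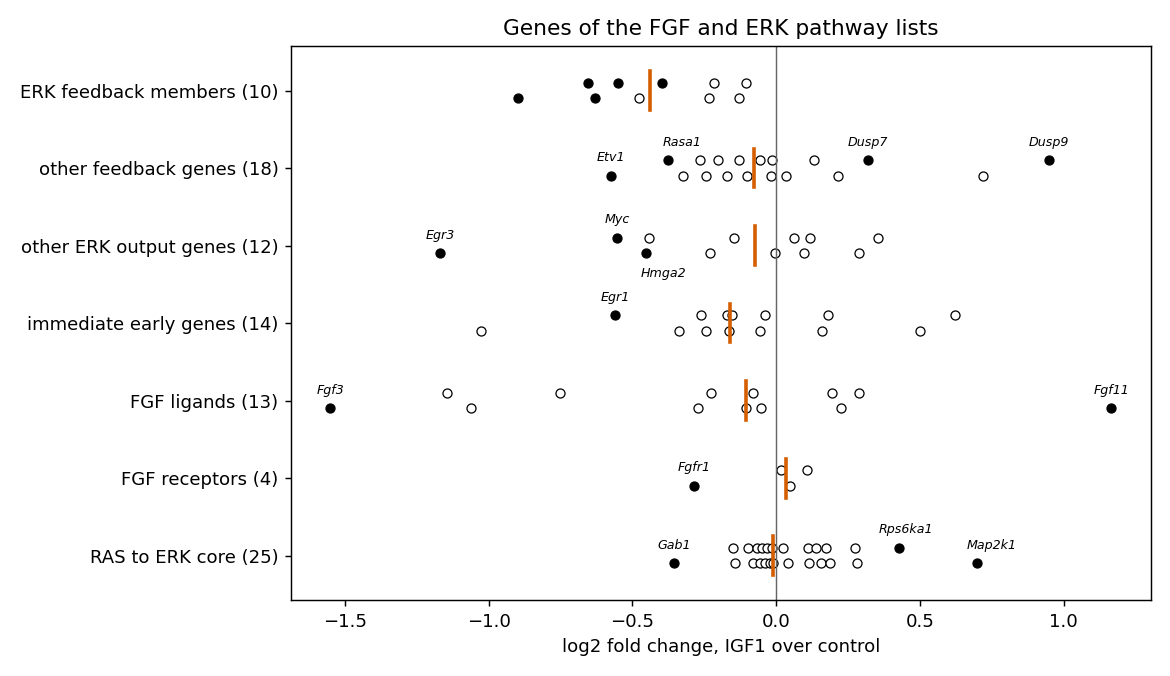
Log2 fold change, IGF1 over control, of every tested gene of the 10 ERK feedback genes and the 6 further lists (number tested in brackets). Filled points have an edgeR adjusted p under 0.05, and orange bars mark the median of a list. The median of the ERK feedback genes is at -0.44, and those of the other lists lie between -0.16 and 0.03.

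Markers of cell types also moved with IGF1, and their counts stand beside 4.76% called lower and 6.72% called higher over all genes. Of 10 mesenchyme markers 3 fell (Vim, Pdgfra and Pdgfrb) and none rose, with a median log2 fold change of -0.12. Of 12 dental epithelium markers Krt5 rose and none fell, with a median of 0.16. Of 7 enamel knot markers Shh fell by 1.31 (SE 0.162, edgeR adjusted p = 0.000645), Slit1 rose and 5 did not pass the test, with a median of -0.29. Their summed level ran from 72.1 to 116 CPM in control and 61.7 to 118 CPM in IGF1 teeth, and Cdkn1a made up 73.8 CPM of the highest sum. Dkk4, at 0 in 2 IGF1 teeth, had a log2 fold change of -2.48 (SE 0.739, edgeR adjusted p = 0.0535). It passed the test without embryo 6 (-4.63, edgeR adjusted p = 0.00320) and with limma-voom (adjusted p = 0.0195), but not with any other embryo left out. Shh, the enamel knot ligand, was also highest in embryo 6 in both groups, at 50.9 CPM in the control and 30.0 CPM in the IGF1 tooth, against 25.8 to 44.3 and 7.49 to 13.5 CPM in the other embryos. All 4 tested red blood cell markers fell (median -0.49; summed level 708 to 1295 CPM in control and 507 to 1045 CPM in IGF1 teeth), as did Cdh5 of 6 endothelium markers, whose sum ran from 331 to 378 CPM in control and 263 to 344 CPM in IGF1 teeth. Of 4 macrophage markers, with a sum of 37.0 to 54.2 CPM in control and 32.3 to 52.7 CPM in IGF1 teeth, Csf1r fell. Of 2 glia and neuron markers tested, with a sum of 14.0 to 23.7 CPM in control and 17.4 to 32.8 CPM in IGF1 teeth, Tubb3 rose. No muscle marker of 2 (summed level 6.06 to 17.8 CPM in control and 5.85 to 34.8 CPM in IGF1 teeth) or bone marker of 3 (87.2 to 386 CPM and 74.1 to 766 CPM, summed in the same way) passed the test. The calls of Vim, Pdgfra, Shh and the red cell genes Hba-a1, Hbb-bs and Hbb-bt held with any embryo left out. Those of Krt5 (up to edgeR adjusted p = 0.0646), Pdgfrb (0.0907), Slit1 (0.0816), Cdh5 (0.0545), Csf1r (0.102), Tubb3 (0.144) and the red cell gene Hba-a2 (0.134) were lost in at least 1 such fit. Without the block Pdgfra, Shh and Slit1 kept their calls, and the other 10 called markers, all 4 red cell genes among them, lost theirs (edgeR adjusted p from 0.0574 to 0.405). The part of these shifts in the fall of the ERK feedback genes was not tested.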

How the data were processed

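The authors deposited 1 table of estimated counts per gene, unnormalised whole numbers with a column per tooth. The submitters' processing notes name FastQC 0.11.8, Trimmomatic 0.39, Salmon 0.99.0, DESeq2 and GRCm38. The transcript set, strand setting and any filter are not given in the sources used here, though no gene sums to under 10 counts. Libraries were made with the Ovation Mouse RNAseq System from single teeth. Depth is limited to 2845773 to 8763113 counts per tooth, so genes with few counts are less precise.

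Symbols, positions and exon lengths came from GENCODE mouse release 21 (18287 of 18381 identifiers matched). Genes were filtered with filterByExpr by group, scaled by TMM and tested with edgeR's quasi-likelihood test, with embryo as a block and Benjamini-Hochberg adjustment over 14504 genes. The block follows the labels, which pair teeth by embryo. The teeth of a pair, taken as deviations from their group's mean, correlated in embryos 1, 2, 3, 4 and 6 at 0.319, 0.208, -0.0389, 0.170 and 0.313, against a median of -0.0463 between embryos. Log2 ratios per embryo used CPM plus 0.5. Samples of a group differed by more than counting noise (chi-square per degree of freedom 4.68 to 19.4). Only the blocked edgeR fit was run on simulated counts. Those counts held no differences between embryos, so they could not test the use of the block.

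Named were the 10 members, the called genes of each list (at most 4 with the largest change), the molar FGF ligands and the 5 genes most like Dusp6, and called marker genes by their list. Of these 5, 1 is not reported here. The members and lists were chosen with earlier results of these data known. Alternatives were other scaling (DESeq2 size factors, total counts), DESeq2, limma-voom, other count filters, no block and leaving out each embryo. The software was Python 3.11.15 and, in R 4.3.3, DESeq2 1.42.0, limma 3.58.1 and edgeR 4.0.16.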

Additional observations from a re-analysis of the deposited data

Results flagged for a closer look

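In 4 of the 20 groups of 5 teeth formed by the 10 ERK feedback genes, a single tooth stood apart from the rest by Dixon's ratio, the gap to the nearest tooth divided by the range. The IGF1 tooth of embryo 6 was high for Dusp6 (192 CPM against 94.3 to 116, ratio 0.775) and for Dusp4 (9.56 CPM against 5.18 to 6.42, ratio 0.718). The control tooth of embryo 6 was high for Spry4 (89.7 CPM against 45.3 to 49.5, ratio 0.906). The control tooth of embryo 2 was low for Spry2 (32.7 CPM against 42.4 to 46.2, ratio 0.716).

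Among the other named genes embryo 6 was high for Egr3 in both groups (102 CPM against 34.9 to 44.0 in control teeth, ratio 0.866, and 76.7 CPM against 12.6 to 18.4 in IGF1 teeth, ratio 0.910). Its IGF1 tooth was also high for Fgf3 (23.3 CPM against 2.14 to 5.47, ratio 0.842) and Fgf4 (9.71 CPM against 0.594 to 1.44, ratio 0.907). Of the enamel knot markers, Shh was high in the IGF1 tooth of embryo 6 (30.0 CPM against 7.49 to 13.5, ratio 0.731), as was Dkk4 (1.86 CPM against 0 to 0.141, ratio 0.924), which was also high in the control tooth of embryo 4 (3.97 CPM against 1.42 to 1.75, ratio 0.869). Low values were found for Etv1 in the IGF1 tooth of embryo 4 (24.7 CPM against 33.4 to 36.4, ratio 0.745), for Fgfr1 in that of embryo 3 (326 CPM against 375 to 394, ratio 0.719) and for Rps6ka1 in that of embryo 2 (41.5 CPM against 49.9 to 51.5, ratio 0.840). In all, 14 of 94 groups were so marked over 47 genes, the members, the other named genes and the called markers, where about 4.7 would be by chance, and groups of different genes share the same teeth and are not independent.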

How the results depend on the processing

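All 10 ERK feedback genes kept a log2 fold change below 0 in all 13 alternatives, and Spry1, Spry2 and Il17rd passed the test in each of them. The number of ERK feedback genes called was 5 in all settings but the fit without the replicate block, which called 3, and the omission of an embryo, which gave 4 to 5. Genes called in the whole table numbered 1666, against 887 without the block, 986 to 1602 when an embryo was left out and 1355 to 1832 under the other settings (975 higher and 691 lower with TMM, 912 and 777 with total counts only). Without the block the called genes fell from 4 to 1 among the further feedback genes and from 3 to 1 among the other ERK readouts. They fell from 1 to 0 among FGF receptors and from 2 to 1 among FGF ligands. The ligand still called was Fgf11, which was higher, whereas DESeq2 called only Fgf3, which was lower. Leaving out an embryo gave 1 to 3 further feedback genes, 0 to 1 receptors and 1 to 3 ligands. Of 130 values of the 10 genes under alternatives 124 stayed on their side of the threshold, 5 lost a call and 1 gained it. Of 475 values of the other named genes, called markers included, 413 stayed, 57 lost a call, 5 gained it and none changed direction. The causes of these moves were not tested, and leaving out an embryo also leaves fewer samples. A gene that failed the filter of a setting gave no value there. Where DESeq2 gave no adjusted p, as for Dkk4 and Fgf20, the value was counted as having stayed. The filter by the paired design matrix was added after seeing the data. Of the 10 genes Dusp4, with 18 to 75 counts in a tooth, had the largest SE.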
